A study of Mus musculus with 16 samples.

Results

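The genes described here are 8 genes of glucose synthesis in the mouse kidney, Pck1, G6pc, Fbp1, Pcx, Slc37a4, Ppargc1a, Mdh1 and Got1. They were picked by symbol, and each matched 1 of the 13430 genes in the deposited table. All 8 passed the filter on low values and were tested. The kidneys came from 16 female C57BL/6 mice aged 2 to 3 months, with 1 RNA library per animal from a slice 3 mm thick through the middle of the organ. The 4 groups of 4 animals were IRR-/- knockout mice drinking sodium bicarbonate, IRR-/- knockout mice drinking water, wild-type mice drinking sodium bicarbonate and wild-type mice drinking water. Bicarbonate was given at 250 mM and pH 8.5 for 7 days, and every animal, controls included, had been fasted for 12 h with its drink at hand. IRR is the insulin receptor-related receptor, encoded by Insrr, a receptor tyrosine kinase activated by alkaline extracellular fluid. The labels do not say which part of Insrr the knockout lacks, and the whole slice mixes all cell types of the kidney.

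The proximal tubule of the kidney is, with the liver, a main site of glucose synthesis, and its share grows during fasting. It builds glucose from lactate, glutamine and glycerol, and the use of glutamine ties the pathway to ammonia production and so to the acid-base state. In rodents an acid load is known to raise Pck1 in this segment. Pyruvate carboxylase (Pcx) makes oxaloacetate in mitochondria, which leaves them in the form of malate or aspartate. Cytosolic malate dehydrogenase (Mdh1) and aspartate aminotransferase (Got1) make oxaloacetate from these again, and phosphoenolpyruvate carboxykinase (Pck1) turns it into phosphoenolpyruvate. Fructose bisphosphatase (Fbp1) acts further along the chain, and glucose phosphate is carried into the endoplasmic reticulum by Slc37a4 and split there by the catalytic subunit G6pc. Ppargc1a encodes PGC-1α, a coactivator of transcription that drives several of these genes in the fasted liver.

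The promoters of 4 of the genes are shown because Pck1 was the most abundant member and Ppargc1a, Fbp1 and Pcx were the members that differed between genotypes. Each run holds the 250 bases before the RefSeq start in GRCm38.p6, on the strand of the gene. Capitals mark CGTCA or TGACG, the half-site of the cAMP response element, searched on both strands. The Pck1 window is chr2:173152823-173153072 on the plus strand, the Ppargc1a window chr5:51567726-51567975 on the minus strand and the Fbp1 window chr13:62888283-62888532 on the minus strand. RefSeq lists 2 starts for Pcx, with windows at chr19:4510222-4510471 and chr19:4594069-4594318 on the plus strand, and a value per gene does not separate them.
Pck1: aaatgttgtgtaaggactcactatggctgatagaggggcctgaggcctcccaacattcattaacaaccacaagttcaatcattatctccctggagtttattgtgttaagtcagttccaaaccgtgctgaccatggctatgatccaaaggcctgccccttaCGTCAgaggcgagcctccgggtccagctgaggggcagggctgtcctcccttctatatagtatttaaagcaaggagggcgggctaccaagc
Ppargc1a: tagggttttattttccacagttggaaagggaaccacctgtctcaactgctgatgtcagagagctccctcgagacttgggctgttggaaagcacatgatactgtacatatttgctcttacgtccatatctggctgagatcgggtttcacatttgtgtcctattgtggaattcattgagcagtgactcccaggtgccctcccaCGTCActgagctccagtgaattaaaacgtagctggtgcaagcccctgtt
Fbp1: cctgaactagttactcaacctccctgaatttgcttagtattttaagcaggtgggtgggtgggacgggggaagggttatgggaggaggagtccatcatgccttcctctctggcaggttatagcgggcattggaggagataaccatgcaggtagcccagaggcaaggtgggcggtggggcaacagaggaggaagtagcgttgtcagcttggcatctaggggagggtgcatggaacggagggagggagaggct
Pcx upstream start: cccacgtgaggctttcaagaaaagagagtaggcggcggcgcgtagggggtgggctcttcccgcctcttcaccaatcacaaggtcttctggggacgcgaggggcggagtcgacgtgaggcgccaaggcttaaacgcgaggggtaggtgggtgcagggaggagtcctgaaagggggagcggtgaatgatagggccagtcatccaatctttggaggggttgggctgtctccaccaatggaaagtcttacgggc
Pcx downstream start: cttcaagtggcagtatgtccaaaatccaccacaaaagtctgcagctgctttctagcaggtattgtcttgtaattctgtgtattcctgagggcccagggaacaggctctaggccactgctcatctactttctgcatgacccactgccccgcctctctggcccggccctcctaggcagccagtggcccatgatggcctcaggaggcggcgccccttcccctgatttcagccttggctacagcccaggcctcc
The half-site began 90 bases before the start of Pck1 and 49 bases before the start of Ppargc1a. It was found in 4 of the 11 RefSeq promoters of the 8 genes, which belonged to 3 genes, Pck1, Ppargc1a and Slc37a4. Among all 32851 mouse promoters of the same length 17.8% held it. The Slc37a4 windows at chr9:44396696-44396945 and chr9:44396849-44397098 overlap and share a TGACG site, so the 4 promoters are not all separate sequences. The full palindrome TGACGTCA, which contains both half-sites, was in 0 of the 11 promoters and in 1.55% of all promoters. These letters were not in the windows of Fbp1, Pcx, G6pc, Mdh1 and Got1.

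The values are the authors' RPKM, reads per kilobase of gene, scaled to the size of the library, and the depth of the libraries is unknown. Libraries of 1 group correlated at 0.95 to 0.97 on the log2 scale and no pair held identical values. The mitochondrially encoded genes took 82.6 to 84.9% of the summed RPKM in knockout libraries and 69.6 to 74.2% in wild-type libraries, and the part of this shift in the genotype differences below was not tested. Insrr had 3.31 to 4.11 RPKM in the 8 knockout libraries and 4.20 to 6.73 RPKM in the 8 wild-type libraries, so the genotypes did not overlap but transcript remained, and the values do not check the loss of the protein. One library stood apart. Wild-type bicarbonate replicate 3 had 742 RPKM of Kap, an androgen-regulated transcript of the proximal tubule, and its 3 companions in the group had 7148 to 9256 RPKM. Kap made up most of the summed level of 12 proximal tubule markers in every library except this one, and the other 11 summed to 5104 to 5767 RPKM in knockout libraries and 4654 to 5914 RPKM in wild-type libraries. In knockout against wild type 1 of the 12 markers was higher and 1 lower on bicarbonate (median log2 difference 0.05), and 2 were higher and 2 lower on water (median -0.09). On bicarbonate the sum of 4 blood cell markers was 231 to 609 RPKM in the knockout and 805 to 1541 RPKM in wild type. On water the genotypes overlapped, at 370 to 2060 RPKM in the knockout and 499 to 1565 RPKM in wild type. The part of blood in the genotype differences was not tested. The liver transcript Alb lay between 2.79 and 16.6 RPKM over all libraries. In bulk tissue, fewer cells of a type and less RNA per cell cannot be told apart.

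By median level over the 16 libraries, the order on the RPKM scale, which is per length, was Pck1 at 1374, Fbp1 at 541, G6pc at 371, Mdh1 at 151, Slc37a4 at 92.7, Got1 at 66.2, Pcx at 46.7 and Ppargc1a at 34.5 RPKM. Pck1 ranked 28 and Fbp1 85 among all 13430 genes. Pck1 exceeded Fbp1 in each of the 16 libraries, by 1.48-fold to 4.88-fold. Fbp1 and G6pc changed places in 1 of 4 knockout bicarbonate libraries and in 1 of 4 knockout water libraries, while in wild type Fbp1 was 1.58-fold to 2.01-fold higher than G6pc in every library. The low end of the order depended on the group. Got1 lay below Pcx in 4 of 4 knockout water libraries but above it in the 12 other libraries, and Pcx lay above Ppargc1a in 8 of 8 knockout libraries, 3 of 4 wild-type bicarbonate libraries and 1 of 4 wild-type water libraries.

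**Figure D1:**
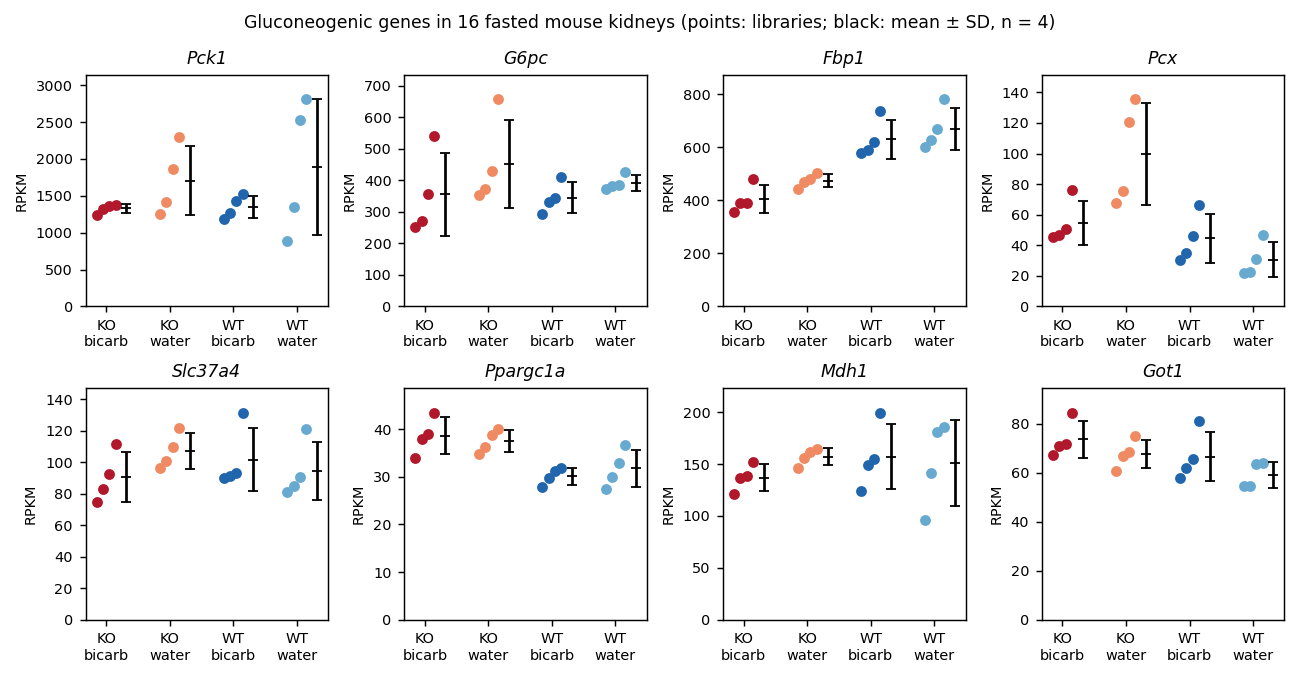
RPKM of the 8 genes (vertical axes, each from 0) in the 4 groups, with 1 point per library and the mean ± SD of 4 libraries in black. Fbp1 lies lower in all 8 knockout libraries than in all 8 wild-type libraries, and Pcx is highest in the knockout on water, at 67.7 to 135 RPKM.

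Fbp1, which removes a phosphate from fructose bisphosphate, fell in the knockout on both drinks. Its levels were 480, 389, 356 and 390 RPKM in knockout kidneys on bicarbonate and 504, 442, 471 and 482 RPKM in knockout kidneys on water. Wild-type kidneys had 588, 578, 737 and 618 RPKM on bicarbonate and 628, 600, 669 and 780 RPKM on water. The highest knockout library, on water, stayed below the lowest wild-type library, on bicarbonate. On bicarbonate the mean was 404 ± 53.4 RPKM in the knockout and 630 ± 73.1 RPKM in wild-type kidneys (SD, n = 4 each). On the log2 scale this was -0.64 ± 0.10 (SE, with a limma adjusted p of 0.000606), or 0.640 of the wild-type level. On water it was 474 ± 25.7 RPKM in the knockout and 669 ± 79.0 RPKM in wild-type kidneys (SD, n = 4 each). On the log2 scale this was -0.49 ± 0.10 (SE, with a limma adjusted p of 0.00345). Without the wild-type bicarbonate library that stood apart the difference on bicarbonate was -0.57 (limma adjusted p = 0.00162). Fbp1 lies on chromosome 13 at 62864753-62888282, minus strand (GENCODE M21, GRCm38).

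Pcx, the mitochondrial entry enzyme, rose in the knockout on water. Its levels were 135, 75.6, 67.7 and 121 RPKM in knockout kidneys on water, against 22.8, 21.8, 30.9 and 46.6 RPKM in wild-type kidneys on water. All 4 knockout libraries lay above the highest wild-type library. The means were 99.8 ± 33.2 RPKM in the knockout and 30.5 ± 11.5 RPKM in wild-type kidneys (SD, n = 4 each). On the log2 scale this was 1.71 ± 0.30 (SE, with a limma adjusted p of 0.00103), or 3.28-fold. On bicarbonate the levels were 75.9, 45.4, 46.7 and 50.6 RPKM in the knockout and 34.8, 46.0, 66.4 and 30.6 RPKM in wild type, and these groups overlapped. That log2 difference was 0.33, with a 95% interval of -0.32 to 0.98 (limma adjusted p = 0.493), and 0.55 (limma adjusted p = 0.239) without wild-type bicarbonate replicate 3. With each library of these groups left out in turn, it ran from 0.16 to 0.55.

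The response of Pcx to the drink had opposite signs in the genotypes. Bicarbonate minus water was -0.84 on the log2 scale in the knockout (limma unadjusted p = 0.0146, adjusted p = 0.497) and 0.54 in wild type (limma unadjusted p = 0.0926, adjusted p = 0.509). The wild-type value was 0.33 without wild-type bicarbonate replicate 3. The interaction, which is the knockout response minus the wild-type response, was -1.38 ± 0.43 (SE, unadjusted p = 0.00582) and did not pass after adjustment over all genes (limma adjusted p = 0.489). Pcx is also used by adipose tissue. The sum of 3 adipose markers was 85.2 to 281 RPKM in the knockout on water and 94.5 to 573 RPKM in wild type on water. By group mean most of this sum was Fabp4, at 149 RPKM in the knockout and 199 RPKM in wild type. The part of adipose tissue in the Pcx difference was not tested. Pcx lies on chromosome 19 at 4510472-4621752, plus strand.

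Ppargc1a, the coactivator, rose in the knockout on bicarbonate. Its levels were 43.5, 39.0, 37.9 and 34.0 RPKM in the knockout and 27.8, 31.8, 29.8 and 31.1 RPKM in wild type, with no overlap. The means were 38.6 ± 3.88 RPKM in the knockout and 30.1 ± 1.79 RPKM in wild-type kidneys (SD, n = 4 each). On the log2 scale this was 0.35 ± 0.09 (SE, with a limma adjusted p of 0.0158), or 1.28-fold. Without wild-type bicarbonate replicate 1 the difference was 0.31 and its limma adjusted p was 0.0502, which ended the call. On water the libraries had 34.9, 36.2, 38.8 and 40.0 RPKM in the knockout and 30.1, 27.5, 32.9 and 36.7 RPKM in wild type, and 1 wild-type library lay within the range of the knockout. The log2 difference on water was 0.24 with a 95% interval of 0.05 to 0.44 (limma adjusted p = 0.0745). It passed with median-of-ratios scaling (0.28, limma adjusted p = 0.0436), with quantile normalization (0.26, limma adjusted p = 0.0402) and with the trend on length and GC content removed (0.38, limma adjusted p = 0.0167), and it passed without wild-type water replicate 4 (0.31, limma adjusted p = 0.0247). The gene, on chromosome 5 at 51454250-51567726, minus strand, has a longest annotated transcript of 6464 bases.

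Pck1 had the widest relative range of the 8 genes in wild type on water and the narrowest in the knockout on bicarbonate. Its levels were 1244, 1381, 1327 and 1366 RPKM in the knockout on bicarbonate and 1418, 1860, 2296 and 1253 RPKM in the knockout on water. Wild-type kidneys had 1273, 1182, 1425 and 1524 RPKM on bicarbonate and 1345, 890, 2809 and 2523 RPKM on water. The bicarbonate libraries of both genotypes lay within 1182 to 1524 RPKM, while the water libraries ran from 890 to 2809 RPKM, so the drinks overlapped. The highest library exceeded the lowest 1.11-fold in the knockout on bicarbonate, 1.83-fold in the knockout on water, 1.29-fold in wild type on bicarbonate and 3.16-fold in wild type on water. The coefficient of variation was 4.63% in the knockout on bicarbonate and 27.5% in the knockout on water, and it was 11.3% in wild type on bicarbonate and 48.7% in wild type on water. Of all genes tested, 10.9% varied less than Pck1 in the knockout on bicarbonate and 81.4% in the knockout on water, and 39.0% did in wild type on bicarbonate and 93.4% in wild type on water. The difference in spread itself was not tested.

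Bicarbonate minus water in Pck1 was -0.32 on the log2 scale in the knockout, with a 95% interval of -0.95 to 0.30, and -0.34 in wild type, with an interval of -0.97 to 0.28. The limma adjusted p was 0.831 in the knockout and 0.694 in wild type. Knockout minus wild type was -0.02 on bicarbonate (interval -0.64 to 0.61) and -0.04 on water (interval -0.66 to 0.58), and neither passed. Pck1 is abundant in adipose tissue too. The wild-type water library with the highest sum of adipose markers, 573 RPKM, had 1345 RPKM of Pck1, while the 2809 and 2523 RPKM libraries had adipose sums of 143 and 196 RPKM. The library with the lowest Pck1 of that group, 890 RPKM, also had its lowest adipose sum, 94.5 RPKM. The part of adipose tissue in the Pck1 values was not tested. Pck1 lies on chromosome 2 at 173153048-173159273, plus strand.

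The terminal pair, G6pc and Slc37a4, passed in 0 of the 4 pairwise comparisons. G6pc had 541, 357, 270 and 251 RPKM in the knockout on bicarbonate and 371, 352, 428 and 656 RPKM in the knockout on water. In wild type it had 293, 331, 410 and 342 RPKM on bicarbonate and 371, 380, 386 and 426 RPKM on water. The knockout groups were the wide ones here, with 1 high library in each, and every pair of groups overlapped. Its coefficient of variation was 37.3% in the knockout on bicarbonate, 31.0% in the knockout on water, 14.2% in wild type on bicarbonate and 6.22% in wild type on water, an order unlike that of Pck1. Bicarbonate minus water in G6pc was -0.37 in the knockout (95% interval -0.84 to 0.10) and -0.19 in wild type (interval -0.66 to 0.28) on the log2 scale. Slc37a4, the glucose phosphate carrier, ran from 74.7 to 111 RPKM in the knockout on bicarbonate, 96.1 to 121 RPKM in the knockout on water, 89.8 to 131 RPKM in wild type on bicarbonate and 81.2 to 121 RPKM in wild type on water. Its 4 pairwise log2 differences lay between -0.25 and 0.19.

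The cytosolic partners of oxaloacetate export, Mdh1 and Got1, also passed in 0 of the 4 pairwise comparisons. Mdh1 averaged 137 ± 12.7 RPKM in the knockout on bicarbonate, 157 ± 8.14 RPKM in the knockout on water, 157 ± 31.4 RPKM in wild type on bicarbonate and 151 ± 41.6 RPKM in wild type on water (SD, n = 4 each). Wild-type water libraries had 185, 96.0, 181 and 141 RPKM of Mdh1, so that group enclosed both knockout groups. Got1 averaged 73.5 ± 7.53 RPKM in the knockout on bicarbonate, 67.7 ± 5.75 RPKM in the knockout on water, 66.5 ± 10.1 RPKM in wild type on bicarbonate and 59.1 ± 5.21 RPKM in wild type on water (SD, n = 4 each). Knockout minus wild type in Got1 was 0.15 on bicarbonate (95% interval -0.07 to 0.38) and 0.20 on water (interval -0.03 to 0.42) on the log2 scale. The groups of Got1 overlapped in each of the 4 pairwise comparisons.

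**Figure D2:**
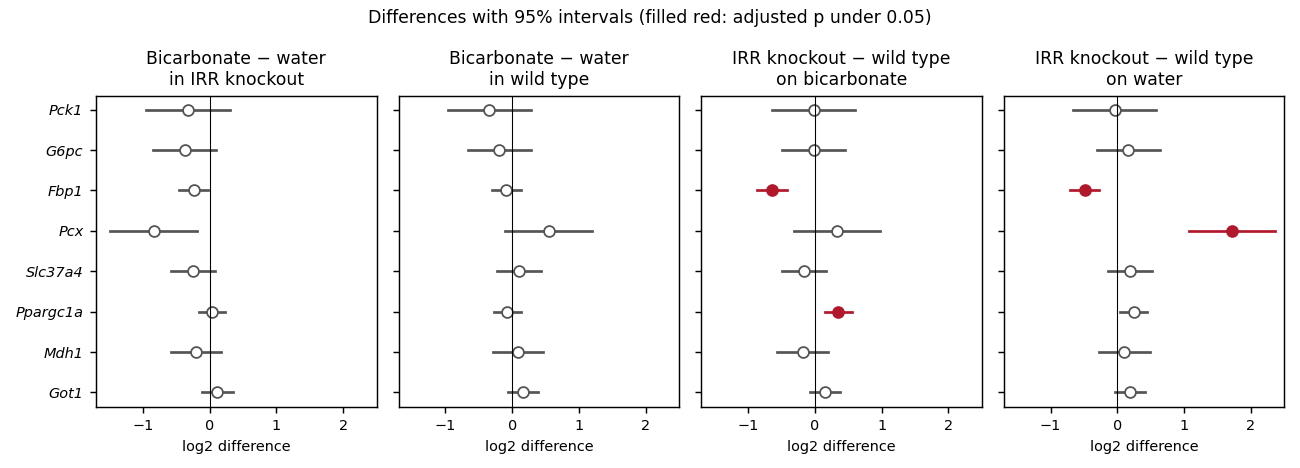
Log2 differences (horizontal axes) of the 8 genes with 95% intervals from limma in the 4 pairwise comparisons, filled where the adjusted p was under 0.05. The filled points are Fbp1 in both genotype panels, at -0.64 and -0.49, Ppargc1a on bicarbonate at 0.35 and Pcx on water at 1.71.

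Counted over the set, 2 of the 8 genes passed in knockout against wild type on bicarbonate, 1 higher and 1 lower, where 18.4% of all 12943 genes tested passed, 9.03% higher and 9.36% lower. On water 2 of 8 passed, again 1 higher and 1 lower, against 21.9% of all genes, 10.1% higher and 11.8% lower. The groups did not overlap for 2 of 8 genes on bicarbonate (22.8% of all genes) and 2 of 8 on water (23.8% of all genes). These shares of the 8 genes are near those of the whole table. The median log2 difference of the 8 genes was -0.02 on bicarbonate, the same as over all genes, and 0.18 on water, against -0.05 over all genes. Genes with a longest transcript of 1001 to 2000 bases, such as Fbp1, had a median difference of -0.06 on bicarbonate and -0.01 on water, and genes of more than 4000 bases, such as Pcx and Ppargc1a, had 0.03 on bicarbonate and -0.06 on water.

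Bicarbonate moved 0 of the 8 genes past the limma threshold in either genotype. Of all genes 0.0232% passed in the knockout and 0.139% in wild type. The drinks overlapped for each of the 8 genes in both genotypes, and they did not overlap for 5.66% of all genes in the knockout and 5.86% in wild type. At an unadjusted p under 0.05 there were 2 of 8 in the knockout, Pcx at -0.84 and Fbp1 at -0.24, against 7.99% of all genes, and 0 of 8 in wild type, against 12% of all genes. The median log2 difference of the 8 genes was -0.25 in the knockout (0.01 over all genes) and 0.01 in wild type (-0.01 over all genes). The interaction passed for 0 of 8 genes (0.0155% of all genes), with Pcx the 1 gene at an unadjusted p under 0.05 (8.19% of all genes). Averaged over genotypes, 0 of 8 genes passed (0.44% of all genes) and 1, Fbp1 at -0.16, had an unadjusted p under 0.05 (11.3% of all genes). Comparisons that share a group are not independent of each other.

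Within groups, most of the 8 genes varied together from animal to animal. Deviations from the 4 group means on the log2(RPKM + 0.1) scale were correlated over the 16 libraries, as a description. The median r over the 28 pairs was 0.52, and it was 0.00 over pairs drawn from a regular 1-in-10 grid of all genes tested. Fbp1 and Slc37a4 were the closest pair (r = 0.90, Spearman rho = 0.79), at 0.82 without the 2 libraries farthest from the median of Fbp1. In every pair the 2 libraries were picked by 1 gene alone, the earlier one in the opening list of the 8 genes. Libraries far out for the other gene could therefore remain. Slc37a4 and Got1 followed at 0.87. The 10 pairs among G6pc, Fbp1, Pcx, Slc37a4 and Got1, a set chosen after its values were seen, had r of 0.51 to 0.90, and 0.35 (G6pc with Pcx) to 0.83 without the 2 farthest libraries. Pck1 stood outside this pattern, with r of -0.09 to 0.51 to the other 7 genes and its lowest value to G6pc. Mdh1 had r of 0.25 to 0.54 and Ppargc1a 0.42 to 0.66 to the others. Several of these values rested on 2 libraries. Without the 2 farthest, r was -0.18 for Pck1 with Mdh1, against 0.46 with all libraries, and 0.31 for Pck1 with Ppargc1a, against 0.51, and over all pairs it ran from -0.18 to 0.83. The points share library, depth and composition, and the residuals of a group sum to 0.

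**Figure D3:**
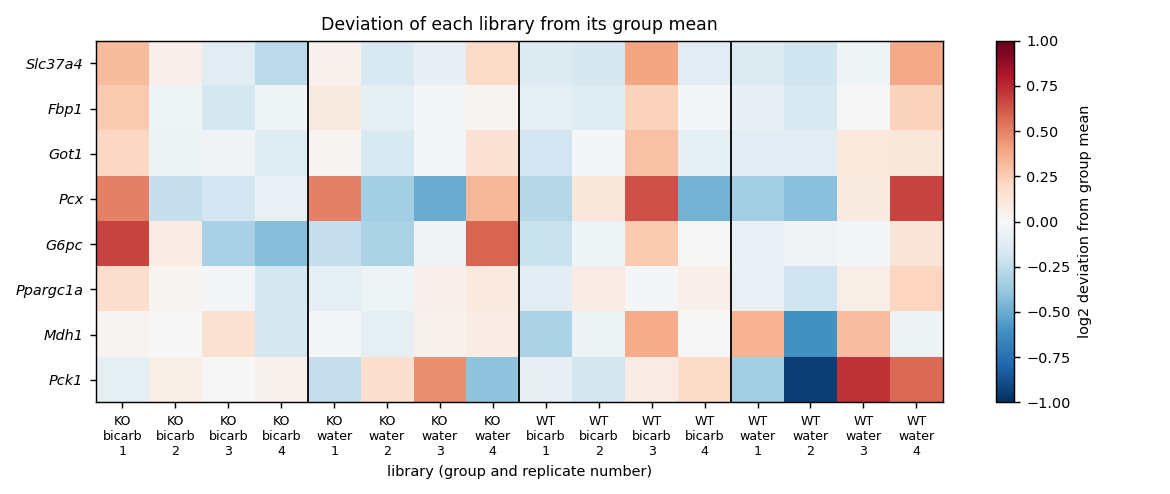
Log2 deviation of each library from its group mean (colour scale) for the 8 genes (rows) in the 16 libraries (columns, by group and replicate number). Knockout bicarbonate replicate 1, wild-type bicarbonate replicate 3 and wild-type water replicate 4 are above their group for most rows, while Pck1 in the bottom row follows another order.

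In each group 1 animal was the highest for most of the genes. Knockout bicarbonate replicate 1 was the highest of its group for 6 of the 8 genes and knockout water replicate 4 for 5. In wild type, bicarbonate replicate 3 and water replicate 4 were each the highest of their groups for 6. Wild-type bicarbonate replicate 3 is the library with little Kap. Some marker transcripts varied with the deviations of several of these genes. Within groups the adipose marker sum had r of 0.61 with G6pc, 0.52 with Fbp1, 0.51 with Slc37a4, 0.45 with Mdh1, 0.43 with Got1, 0.35 with Ppargc1a, 0.24 with Pcx and 0.02 with Pck1. Its range was 68.4 to 480 RPKM in the knockout on bicarbonate, 85.2 to 281 RPKM in the knockout on water, 104 to 459 RPKM in wild type on bicarbonate and 94.5 to 573 RPKM in wild type on water, over 3 of 5 listed adipose genes, with Plin1 and Lep not among the genes analysed here. Fabp4 made up most of this sum, with group means of 136 to 235 RPKM. Those of Cfd were 26.9 to 40.4 RPKM and those of Adipoq 6.47 to 16.0 RPKM. Taken singly, Fabp4 had r of 0.61 with G6pc and 0.51 with Slc37a4. Adipoq had 0.57 and 0.47 with these genes, and Cfd had 0.36 and 0.29. Lrp2, the endocytic receptor megalin of the proximal tubule, had r of -0.69 with Slc37a4, -0.68 with Pcx, -0.65 with Got1, -0.61 with Fbp1, -0.53 with Mdh1, -0.30 with G6pc, -0.22 with Ppargc1a and -0.13 with Pck1. Of the 12 proximal tubule markers only Lrp2 and Kap were set singly against the genes. Kap had r from -0.52 with Got1 to 0.22 with Ppargc1a and 0.27 with Pck1. The liver transcript Alb had r from -0.70 with Pcx to -0.04 with G6pc. The sum of all 12 proximal tubule markers, Kap included, had r of -0.42 with Pcx, -0.40 with Got1, -0.30 with Slc37a4, -0.29 with Mdh1, -0.24 with Fbp1, -0.12 with G6pc, 0.30 with Ppargc1a and 0.40 with Pck1. The part of tissue composition in the joint variation was not tested.

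The gene most like each member by the same measure was sought among the genes tested, leaving out those with Gm, Rik or clone-number symbols. It was Slc25a10 for Pck1 (r = 0.89), Dnajb11 for G6pc (0.92), Grasp for Fbp1 (0.92) and Krt7 for Pcx (0.93). For the others it was Psmd8 for Slc37a4 (0.92), Denr for Ppargc1a (0.88), Fitm2 for Mdh1 (0.88) and Lrg1 for Got1 (0.93), each over 16 libraries. Slc25a10 encodes the mitochondrial dicarboxylate carrier. Each partner was picked as the highest r of all genes searched, so a high r follows in part from the choice itself. Without the 2 libraries farthest from the median of the member, r was between 0.74 for Fitm2 with Mdh1 and 0.91 for Krt7 with Pcx. The remaining libraries had also served to pick the partners, so this range is no independent check. For Got1 the next gene was Fkbp5, at 0.91. Most lower-ranked genes of the other members are not reported here, so no theme can be read from this 1 gene.

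The neighbouring pathway was read from 68 companion genes in 6 lists, of which 67 were in the table and tested. Knockout minus wild type on bicarbonate moved 21 of the 67 past the threshold, 9 higher and 12 lower, which is 31.3% of them beside 18.4% of all genes. On water 18 passed, 9 higher and 9 lower, or 26.9% beside 21.9% of all genes. The median log2 difference of the companions was -0.11 on bicarbonate (-0.02 over all genes) and 0.01 on water (-0.05 over all genes). Among 10 other enzymes of glucose synthesis, 4 were lower on bicarbonate, while on water 1 was higher and 1 lower. Among 12 genes of substrate entry, 2 were higher and 2 lower on bicarbonate and 3 were higher and 3 lower on water. Among 12 genes of opposing steps, 2 were higher and 3 lower on bicarbonate and 1 was higher and 2 lower on water. Among 20 regulators, 5 were higher and 1 lower on bicarbonate and 3 were higher and 2 lower on water. Of 9 mitochondrial and shuttle partners 1 was lower on bicarbonate and 1 higher on water, and of 4 genes of glucose exit and reabsorption 1 was lower on each drink.

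Both lactate dehydrogenase subunits, which feed pyruvate to Pcx from lactate, differed between genotypes in opposite directions. Ldhb averaged 73.5 ± 25.0 RPKM in the knockout and 15.1 ± 0.513 RPKM in wild type on bicarbonate, and 59.2 ± 31.1 RPKM in the knockout and 11.7 ± 3.57 RPKM in wild type on water (SD, n = 4 each). Its log2 difference was 2.22 (limma adjusted p = 0.000326) on bicarbonate and 2.24 (limma adjusted p = 0.000220) on water. Ldha averaged 177 ± 7.24 RPKM in the knockout and 265 ± 6.93 RPKM in wild type on bicarbonate (SD, n = 4 each), with -0.58 as the log2 difference (limma adjusted p = 0.000285), and it fell by 0.33 on water (limma adjusted p = 0.0126). On bicarbonate Crtc2, a coactivator of CREB, rose by 0.58 and Irs2, an adaptor of the insulin receptor, by 0.98. On water the glucocorticoid receptor Nr3c1 fell by 0.53 and Pdk2, a kinase that inhibits pyruvate dehydrogenase, rose by 0.47. Crtc2 was called on water too, with means of 25.7 RPKM in the knockout and 19.1 RPKM in wild type. Pdk2 was called on bicarbonate too, at 164 RPKM in the knockout and 119 RPKM in wild type. Irs2 was called on bicarbonate only and Nr3c1 on water only. The calls of Ldha, Ldhb, Irs2 and Crtc2 on bicarbonate and of Ldhb, Nr3c1 and Pdk2 on water held in every alternative setting. They also held with each library of the groups compared left out in turn.

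Bicarbonate minus water moved 1 of the 67 companions in each genotype, or 1.49%, lower both times. This was Slc13a3, the sodium-dependent dicarboxylate transporter that takes up citrate cycle intermediates. It averaged 188 ± 9.56 RPKM on bicarbonate and 299 ± 20.3 RPKM on water in the knockout, and 165 ± 10.1 RPKM on bicarbonate and 245 ± 29.2 RPKM on water in wild type (SD, n = 4 each). The log2 difference was -0.67 in the knockout (limma adjusted p = 0.00503) and -0.57 in wild type (limma adjusted p = 0.0181). The wild-type call was lost under 4 alternatives, among them the fits without wild-type bicarbonate replicate 1, without replicate 2 and with only the groups compared. The interaction passed for 0 of 67 companions, with limma.

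**Figure D4:**
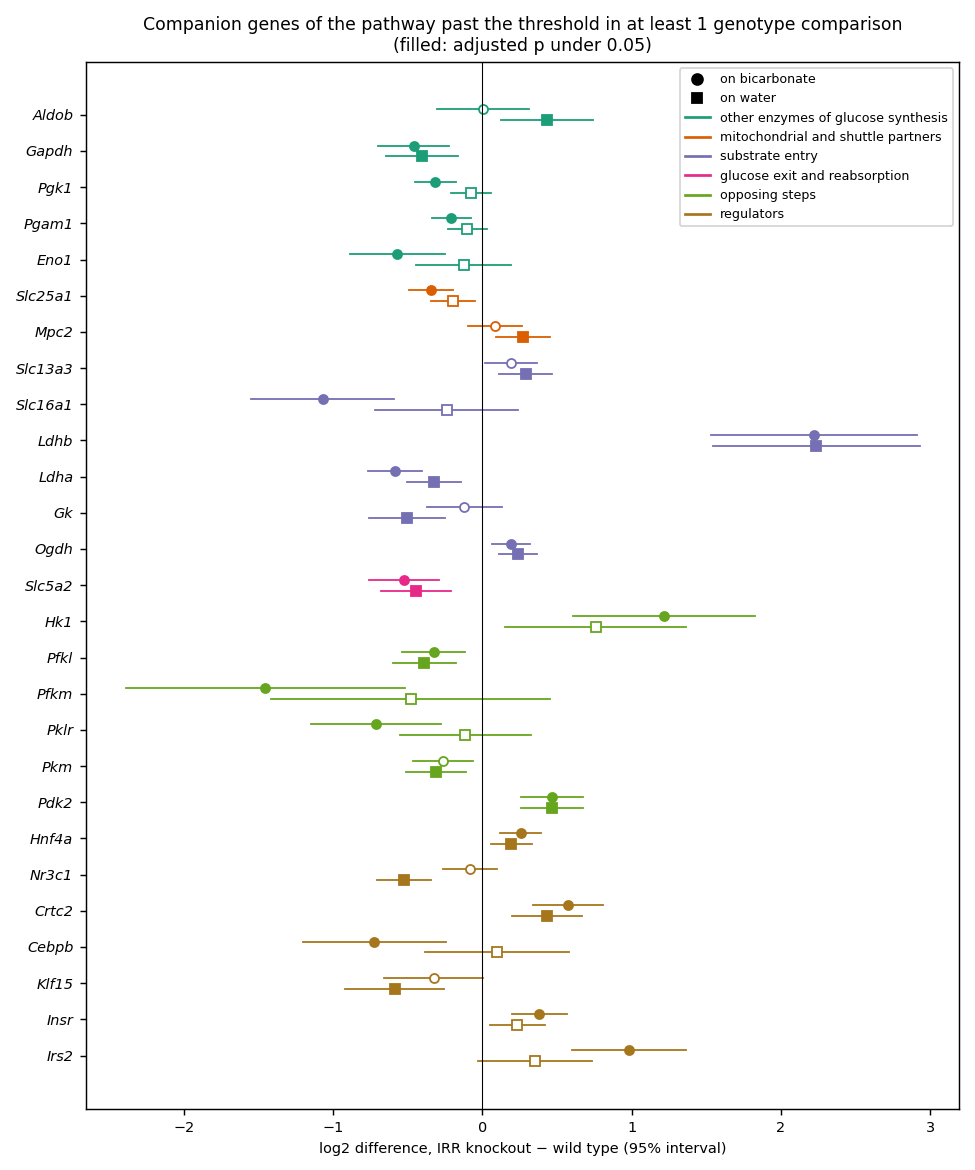
Log2 difference, knockout minus wild type (horizontal axis, with 95% intervals from limma), of 27 of the 29 companion genes past the threshold in at least 1 of the genotype comparisons, by list, with circles for bicarbonate and squares for water, filled where the adjusted p was under 0.05. Ldhb lies farthest to the right, at 2.22 and 2.24, and Ldha to the left of 0 on both drinks.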

How the data were processed

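RNA of 1 kidney slice per mouse was sequenced on Illumina libraries, per the labels' protocols. The deposited values are RPKM per gene, computed by the authors. The submitters' processing notes list Salmon 1.5.2, edgeR 3.34.0, GRCm39 and mm10 without saying what each was for, and which annotation was used is not stated in them. Whole reads could not be recovered, so depth is unknown. Symbols, positions and longest transcript lengths came from GENCODE M21 (GRCm38), which matched 13430 of 13430 genes, and promoters from RefSeq (GRCm38.p6).

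Genes with at least 0.5 RPKM in at least 4 libraries were tested, which left 12943 and set aside 487. limma 3.58.1 in R 4.3.3 was fitted to log2(RPKM + 0.1), with a trended and robust variance and 4 group means over 16 libraries (12 residual degrees of freedom), so folds of low genes are understated. Tests were two-sided, with Benjamini-Hochberg adjustment over all genes tested and a threshold of 0.05. The procedure was tested on simulated data. The labels give no batch, litter or date and do not say whether kidneys were processed separately, so p-values measure the spread between these animals and their processing. The genotype and treatment labels gave the groups. The members, the companion and marker lists, the tests and the rule for named genes were chosen with earlier results of these data known. That rule named Insrr, the 8 members, up to 5 companion genes of smallest p per comparison, the 3 genes most like each member, and up to 3 genes per marker list. Genes with Gm, Rik or clone-number symbols were left out of the search for the most like genes. Some genes that the rule names are counted but not reported here. Alternatives changed the pseudocount, filter, variance model, libraries in the fit, scaling, length and GC trend and replicate block, and left out each library in turn. For a pairwise comparison, only libraries of the groups compared were left out.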

Additional observations from a re-analysis of the deposited data

Results flagged for a closer look

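Of 32 sets of 4 libraries (8 genes in 4 groups), 1 held a library far from the other 3, where chance gives about 1 in 20. It was Slc37a4 in wild-type bicarbonate replicate 3, at 131 RPKM, while the 3 remaining libraries of that group lay between 89.8 and 93.0 RPKM. Without this library, the log2 difference of Slc37a4 between bicarbonate and water in wild type was -0.03, against 0.10 with it, and knockout minus wild type on bicarbonate was -0.03, against -0.16 with it. The library also had 742 RPKM of Kap.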

How the results depend on the processing

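Fbp1 on both drinks and Pcx on water passed in knockout against wild type under every alternative, with log2 differences of -0.79 to -0.57 for Fbp1 on bicarbonate, -0.73 to -0.41 for Fbp1 on water and 1.55 to 1.94 for Pcx, and Ppargc1a on bicarbonate passed except without wild-type bicarbonate replicate 1. With 1 library left out, the number of the 8 genes called on bicarbonate was 1 to 2. The bicarbonate comparisons and the interaction called 0 of the 8 under every alternative. Ppargc1a on water passed without wild-type water replicate 4 (0.31, limma adjusted p = 0.0247). Signs changed for values that did not pass, and the cause was not tested. With the length and GC trend removed, Ppargc1a was -0.011 (bicarbonate, knockout), 0.021 (bicarbonate, wild type), 0.0051 (averaged) and -0.032 (interaction), and knockout minus wild type on bicarbonate was 0.010 for Pck1 and 0.063 for G6pc. With quantile normalization G6pc was -0.0032 on water. With 1 library left out, the ranges that crossed 0 were, for bicarbonate in the knockout, -0.020 to 0.097 (Ppargc1a), and, for bicarbonate in wild type, -0.028 to 0.23 (Slc37a4), -0.14 to 0.00096 (Ppargc1a) and -0.12 to 0.20 (Mdh1). For knockout minus wild type on bicarbonate they were -0.079 to 0.043 (Pck1) and -0.24 to 0.13 (G6pc), and on water -0.35 to 0.20 (Pck1), -0.029 to 0.27 (G6pc) and -0.098 to 0.22 (Mdh1). For the interaction they were -0.22 to 0.34 (Pck1), -0.41 to 0.015 (G6pc) and -0.11 to 0.054 (Got1), and for the average -0.049 to 0.020 (Ppargc1a).

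Same-numbered libraries of different groups had a median correlation of 0.01 in their deviations (-0.10 to 0.10), so the numbers were not taken to pair animals. With the number as a replicate block, the counts over the 8 genes were unchanged, with Fbp1 at a limma adjusted p of 0.00160 on bicarbonate and 0.00616 on water, Pcx at 0.00344 on water and Ppargc1a at 0.0299 on bicarbonate, and Slc13a3 was no longer called in wild type. Companions called were 16 to 23 on bicarbonate and 13 to 20 on water over all alternatives for genotype, and 0 to 3 for bicarbonate in wild type. In the average over genotypes Slc13a3 (-0.62) and Mpc1 (-0.19) were called, and Mpc1 was lost under 15 of 25 alternatives. Depth is unknown, so counting error could not be set beside any value.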
